A study of Homo sapiens with 2 samples.

Results

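Ribosome biogenesis begins in the nucleolus, where RNA polymerase I transcribes ribosomal DNA into a long precursor RNA. Small nucleolar ribonucleoproteins (snoRNPs) guide the chemical modification and cleavage of that precursor, and a large set of helicases, GTPases and scaffold proteins folds it with ribosomal proteins into the small (40S) and large (60S) subunits. Genes for these factors are well-known targets of the transcription factor MYC, and dividing cells express them strongly. The 47 genes described here are such factors, chosen by name from a fixed list, and each matched 1 of the 23608 gene rows of the deposited table. Values of expression were not used to choose them, although results of these data were known when the list was drawn up.

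The data compare ribosome profiling with RNA sequencing of SW13, a human cell line of adrenal adenocarcinoma origin. The ribosome profiling library holds RNA fragments that ribosomes shield from nuclease, and the RNA sequencing library holds total RNA. Both came from cells that had received Add2-Mhrt779 and Add2-Hotair, which overexpress murine non-coding RNAs, and were harvested 48 hours later, so both carry the same overexpression and no untransfected culture is compared. Each assay has 1 library, and no value below has a replicate error or a p-value of its own.

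Levels are the authors' deposited FPKM, fragment counts scaled by transcript length and by the total of mapped fragments. Ribosomes cover mainly the coding part, which made up 15.7% to 97.2% of the factors' GENCODE transcripts. Ribosome profiling levels of different genes can therefore be compared only roughly. To form the ratio, 1 was added to each FPKM, the log2 of the RNA sequencing value was subtracted from that of ribosome profiling, and the result was centred on the median of the 2734 genes with a mean FPKM of at least 10, called tested genes below. That median gene was 1.31-fold higher in ribosome profiling before centring, and every fold is relative to it unless the authors' deposited table is named. Read depth is unknown, because FPKM does not keep it. In ribosome profiling 11423 rows were above 0 and FPKM summed to about 6457390, against 13990 rows and a sum of about 1846990 for RNA sequencing. A single row held about 4180970 FPKM of the ribosome profiling sum. Protein-coding rows alone summed to 191383 FPKM in ribosome profiling and 148017 FPKM in RNA sequencing. All 9 markers of adrenal cortex steroid synthesis, such as NR5A1, STAR and CYP11A1, were listed at 0 in both libraries. The epithelial keratins KRT18 and KRT8 had 139 and 69.7 FPKM in ribosome profiling and 57.2 and 41.9 FPKM in RNA sequencing, while KRT19, EPCAM and CDH1 were listed at 0. The blood markers PTPRC, CD3E and CD14 were listed at 0 in both libraries, and the globin gene HBB had 766 FPKM in ribosome profiling and 691 FPKM in RNA sequencing. Of the fibroblast and endothelial markers COL1A1, COL1A2, DCN, PECAM1 and VWF, none exceeded 0.70 FPKM in ribosome profiling or 0.39 FPKM in RNA sequencing. What HBB stands for in these cells was not tested.

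Of the 47 factors, 46 were detected in ribosome profiling and 47 in RNA sequencing, and most had modest levels. Their FPKM ranged up to 381 with a median of 13.5 in ribosome profiling, against 2.23 to 231 with a median of 8.84 in RNA sequencing. In both libraries 19 factors stayed under 10 FPKM, and 7 reached at least 30 FPKM in each. These 7 (NPM1, NCL, FBL, NOP10, EBNA1BP2, NHP2 and NAP1L1) held 65.3% of the factors' summed FPKM in ribosome profiling and 59.7% in RNA sequencing. The order of levels was alike in both libraries, with a Spearman rho of 0.89 across the 47 factors, which share both libraries and are not replicates.

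**Figure D1:**
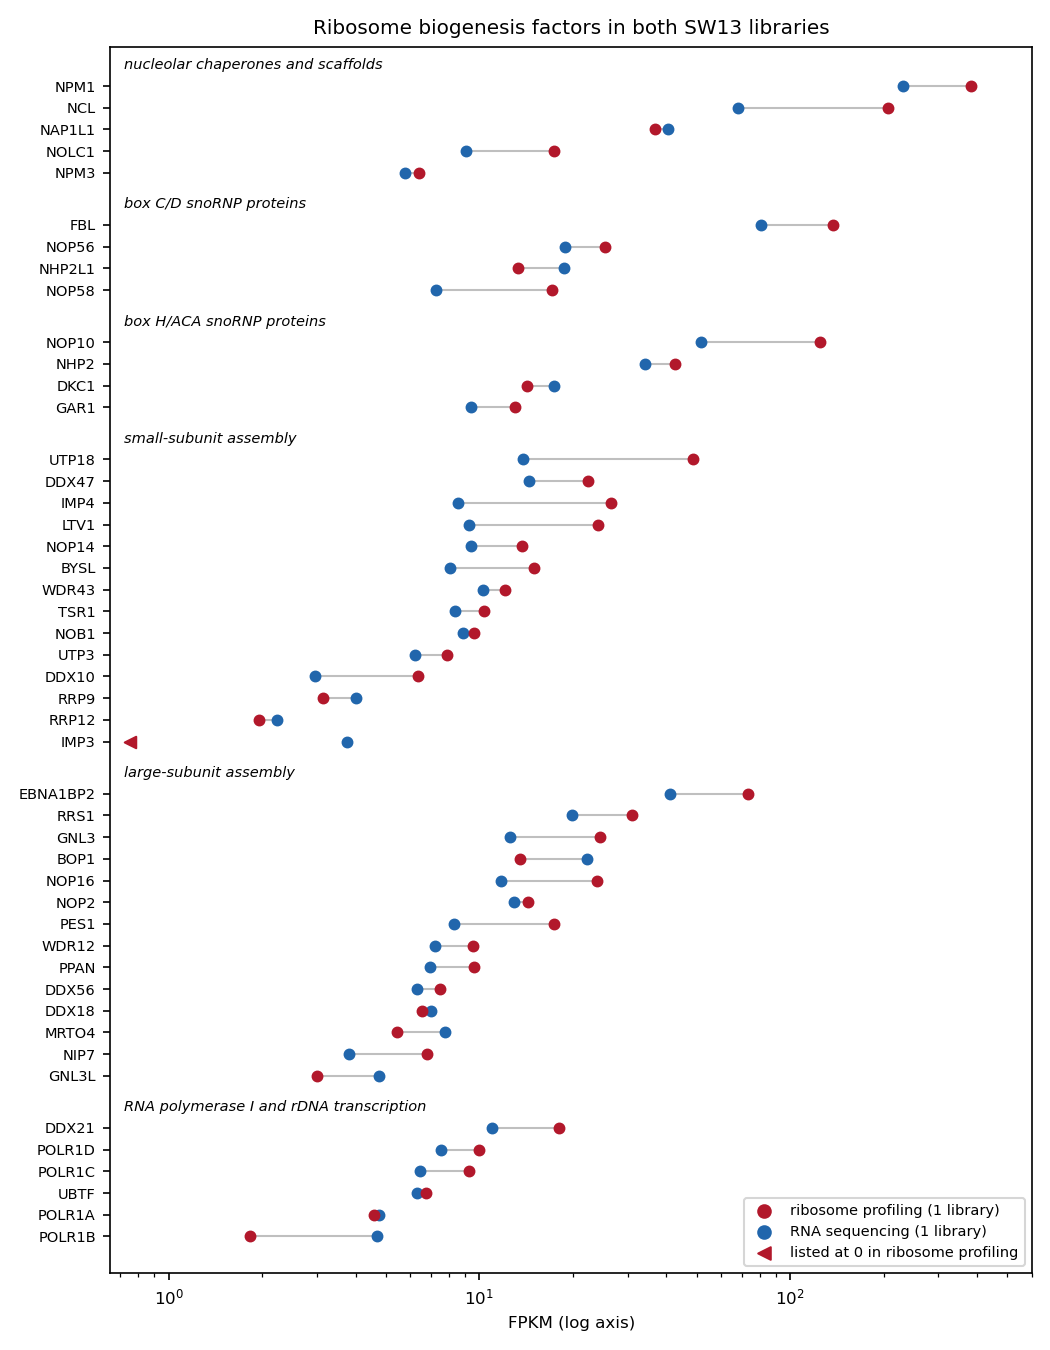
FPKM of each of the 47 factors on a log axis, in ribosome profiling (red) and RNA sequencing (blue), 1 library each, grouped by role and ordered by mean level. NPM1 stands highest at 381 FPKM in ribosome profiling and 231 FPKM in RNA sequencing, and IMP3, the only factor listed at 0, has 3.74 FPKM in RNA sequencing.

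Most factors lay close to the median gene. The 27 factors that passed the mean FPKM of 10 had a median ratio of 0.33, which is 1.25-fold above the median tested gene, with quartiles at -0.025 and 0.58. Among the 2259 tested protein-coding genes the median was 0.039 and the quartiles were -0.55 and 0.55. UTP18, NCL and IMP4 were at least 2-fold higher in ribosome profiling, which is 3 of 27 or 11.1%, against 13.1% of all tested genes and 10.0% of the tested protein-coding genes. BOP1 alone was at least 2-fold lower, 1 of 27 or 3.70%, against 19.7% of all tested genes and 14.5% of the tested protein-coding genes. The share of factors past 2-fold upward was thus near the background, and that downward was below it, although it counts a single gene. By ratio, 20 of the 27 lay above the median gene, against 51.6% of the tested protein-coding genes.

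The filter weighs on these counts, because several factors, among them IMP4, LTV1, PES1, NOLC1, NOP58, BYSL, GAR1 and NOP14, passed it with an RNA sequencing value under 10 FPKM. With all 47 factors on the same centring, the median ratio was 0.017. UTP18, NCL and IMP4 were again the 3 past 2-fold upward, against 6.15% of the 10853 genes of mean FPKM at least 1, and BOP1, POLR1B and IMP3 were the 3 past 2-fold downward, against 33.5%. IMP3 counts there only through the added 1 FPKM, since it was listed at 0 in ribosome profiling. Among the 9859 protein-coding genes of mean FPKM at least 1, 4.99% were 2-fold higher and 31.7% 2-fold lower, and their median was -0.52. By ratio, 24 of the 47 factors lay above the median gene, against 29.3% of those protein-coding genes.

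Ratios also moved with the level of a gene, so the factors were set beside other protein-coding genes of like level. At a mean of 10 to 30 FPKM, 19 factors had a median ratio of 0.23 and the 1455 other protein-coding genes one of -0.10. From 5 to 10 FPKM the medians were -0.11 for 13 factors and -0.42 for 1923 other genes. In both of these classes the factors' median was above that of genes of like level. Above 100 FPKM, NPM1, NCL and FBL had a median of 0.37 beside 0.32 for 255 others, and the 5 factors from 30 to 100 FPKM had one of 0.42 beside 0.25 for 522 others. At 1 to 5 FPKM the medians were -0.67 for 7 factors and -0.77 for 5657 others. In all, 35 of the 47 factors lay above the median of other protein-coding genes of their level class. These classes were added after the values were seen, and no test was made of them.

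**Figure D2:**
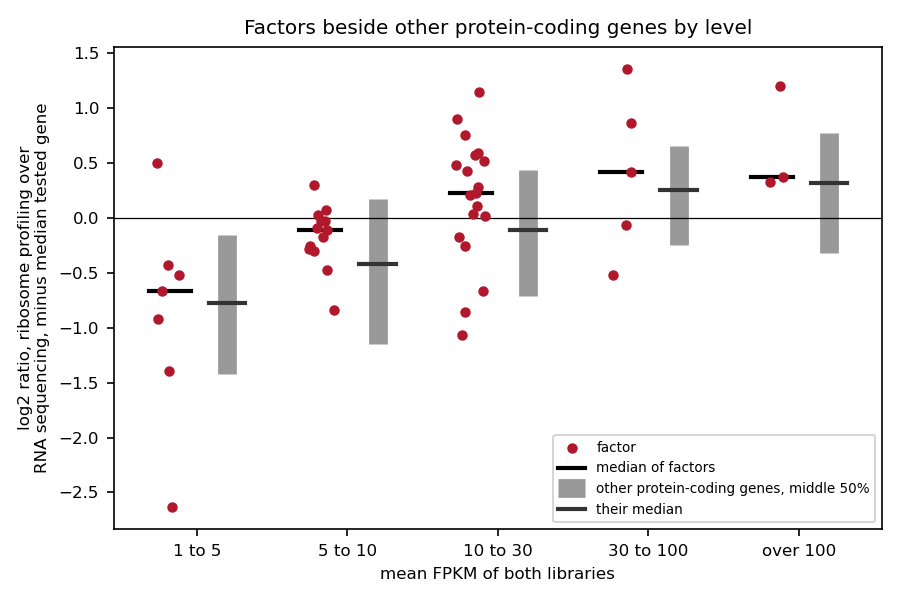
Ratio of each factor (red points, spread sideways for legibility) by mean FPKM of both libraries, with the factors' median (black line) beside the quartile range (grey bar) and median (dark line) of other protein-coding genes of that level. Medians are lowest at 1 to 5 FPKM, -0.67 for the factors and -0.77 for the others, and the factors' medians lie above those of the other genes in each class.

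In the authors' deposited table none of the factors was called. Of the 47 rows, 39 had the status OK, and 0 of these were significant, against 1.30% of the 4849 rows with that status. With a looser q of 0.25 the table would call 0 of them, against 8.70%. The program behind the deposited test is not named in the sources used here. In the authors' deposited table UTP18 was the only factor with an unadjusted p under 0.05 (the authors' p = 0.0364 and q = 0.306), and no q among the factors was lower. The model standard error of the deposited log2 ratio, obtained by dividing the absolute ratio by the absolute statistic, ranged from 0.78 to 1.34 with a median of 0.88 over 46 factors. It holds no spread between cultures. The deposited 95% interval excluded 0 for 1 factor and excluded the median gene for 0 of them.

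**Figure D3:**
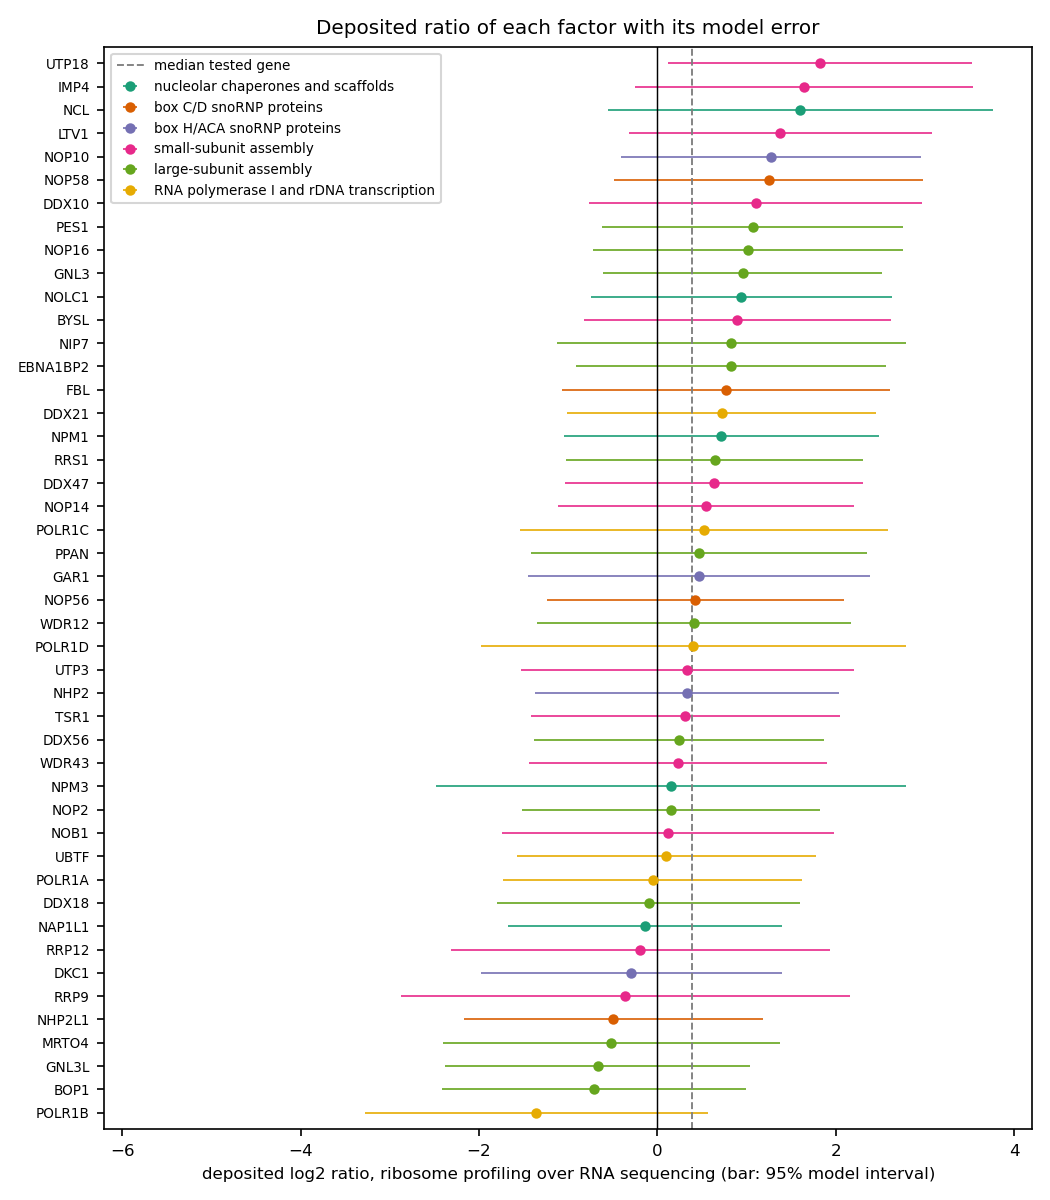
Uncentred log2 ratios (ribosome profiling over RNA sequencing) from the authors' deposited table for the 46 factors with a finite value, ordered from high to low and coloured by role, with the 95% interval from the model error. UTP18 is highest at 1.82 and POLR1B lowest at -1.36, and only the interval of UTP18 lies wholly above 0.

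The nucleolar chaperones and scaffolds held the most abundant factors. NPM1 (nucleophosmin), a chaperone that forms the granular outer layer of the nucleolus, had 381 FPKM in ribosome profiling and 231 FPKM in RNA sequencing, 1.25-fold above the median gene. NCL (nucleolin), an RNA-binding protein of nascent ribosomal RNA, had 206 FPKM in ribosome profiling and 67.9 FPKM in RNA sequencing, 2.3-fold above. NCL was thus among the factors furthest above the median gene, and 90.1% of tested genes had a lower ratio. Its deposited log2 ratio in the authors' deposited table was 1.60 with a model standard error of 1.1 and q = 0.502. In hg19 coordinates NPM1 lies on chromosome 5 (170814708 to 170837888) and NCL on chromosome 2 (232319459 to 232329205). Among protein-coding genes, NPM1 took rank 81 in ribosome profiling and rank 92 in RNA sequencing, and NCL rank 156 in ribosome profiling and rank 280 in RNA sequencing.

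The other chaperones were lower in level and within 2-fold of the median gene. NAP1L1, a histone chaperone, had 36.6 FPKM in ribosome profiling and 40.3 FPKM in RNA sequencing, 1.44-fold below the median gene. NOLC1, the snoRNP chaperone also called Nopp140, had 17.4 FPKM in ribosome profiling and 9.06 FPKM in RNA sequencing, 1.40-fold above. NPM3, a relative of NPM1, had 6.40 FPKM in ribosome profiling and 5.75 FPKM in RNA sequencing. NPM1 therefore stood far above its relative in level in both libraries. Their deposited log2 ratios differed by 0.56, NPM1 minus NPM3, with a 95% interval from -2.61 to 3.73 in the authors' deposited table.

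Many mRNAs of the translation machinery begin with a 5-prime terminal oligopyrimidine (TOP) tract, a C at the first base followed by a run of pyrimidines, through which growth signalling controls their translation. RefSeq promoter entries (GRCh38.p14) were found for 40 of the 47 factors. BOP1, RRS1, NOP58, NHP2L1, RRP12, DDX18 and NOLC1 had none. A start with C and at least 4 further C or T bases was present in 6 of the 40 (15%), against 28 of 38 large-subunit ribosomal proteins (73.7%), 19 of 25 small-subunit ribosomal proteins (76%) and 11.0% of 1893 tested protein-coding genes. Counted per promoter entry, it was in 6 of the factors' 50 entries (12%), against 4.07% of all 35116 promoters. The windows below show these 6 starts and, for contrast, those of NCL and UTP18, which had the highest ratios among the factors with an entry. Each is written 5-prime to 3-prime on the gene's strand, from 8 bases before to 22 bases after the annotated start, with the pyrimidine run from the first base in capitals.
NPM1: cctgcgtcCTTTCCCTggtgtgattccgtc
NAP1L1: tcttgggtCTTTTTTagcgccatctgctcg
FBL: cctgcgctCTTTTCCacgtgcgaaagcccc
DDX21: ggaactacCTCTTCCTCTCCacgcggttga
EBNA1BP2: ccctttccCCTCCCCCggggtcctcctccg
NOB1: gcgctcccCTCTCacgcagccaacatggct
NCL: ttcgcctcagtctcgagctctcgctggcct
UTP18: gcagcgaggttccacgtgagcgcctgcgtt

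The runs were 8 bases long in NPM1 and EBNA1BP2, 7 in NAP1L1 and FBL, 12 in DDX21 and 5 in NOB1, and the first base of NCL and UTP18 was no pyrimidine. On the plus strand, the NPM1 window spans chr5:171387841-171387870 and that of DDX21 chr10:68956162-68956191. On the minus strand the windows are chr12:76084664-76084693 for NAP1L1, chr19:39846358-39846387 for FBL, chr1:43172549-43172578 for EBNA1BP2 and chr16:69754905-69754934 for NOB1. The 6 factors with such a start had a median ratio of 0.31 and the 34 without one -0.0030. Among tested factors the order was the other way, with 0.33 for 5 with such a start and 0.43 for 17 without one. Those without one include IMP4, LTV1, PES1, BYSL, GAR1 and NOP14, which passed the filter with an RNA sequencing value under 10 FPKM. Over tested protein-coding genes the median ratio was -0.092 for the 208 with such a start and 0.051 for the 1685 without one. For cytosolic ribosomal proteins it was -0.17 for 46 with the start and 0.22 for 16 without it. A match describes these letters at an annotated start and does not show which start SW13 cells use.

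Proteins of the box C/D snoRNPs, which guide methylation of ribosomal RNA, were spread around the median gene. FBL (fibrillarin), the methyltransferase, had 137 FPKM in ribosome profiling and 80.6 FPKM in RNA sequencing, 1.30-fold above the median gene. NOP58 had 17.2 FPKM in ribosome profiling and 7.23 FPKM in RNA sequencing, 1.69-fold above. NOP56, its relative and partner in the same particle, had 25.3 FPKM in ribosome profiling and 18.9 FPKM in RNA sequencing and equalled the median gene at a ratio of 0.017. NOP58 was thus the lower of these partners in level and the higher in ratio. In the authors' deposited table NOP58 exceeded NOP56 by 0.82 in log2 ratio, with a 95% interval from -1.58 to 3.22, which holds 0. NHP2L1, which binds the kink-turn of box C/D RNAs and of U4 snRNA, had 13.3 FPKM in ribosome profiling and 18.7 FPKM in RNA sequencing, 1.80-fold below.

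Box H/ACA snoRNPs convert uridines of ribosomal RNA to pseudouridine, and their 4 core proteins differed in ratio although they act in 1 complex. NOP10, the smallest, had 124 FPKM in ribosome profiling and 51.5 FPKM in RNA sequencing, 1.82-fold above the median gene. NHP2 had 42.7 FPKM in ribosome profiling and 34.0 FPKM in RNA sequencing, and GAR1 had 13.0 FPKM in ribosome profiling and 9.41 FPKM in RNA sequencing. DKC1 (dyskerin), the pseudouridine synthase, had 14.2 FPKM in ribosome profiling and 17.4 FPKM in RNA sequencing, 1.58-fold below. The complex was therefore unequal in level as well, from GAR1 to NOP10. In the authors' deposited table NOP10 had a log2 ratio of 1.27, with a 95% interval from -0.41 to 2.95. DKC1 had one of -0.29, from -1.98 to 1.39 in the authors' deposited table. These intervals overlap, and the difference in ratio within the complex was not tested. NHP2 minus NHP2L1, its relative in the box C/D particle, was 0.82 on the deposited log2 scale in the authors' deposited table, with a 95% interval from -1.56 to 3.21.

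Factors of the small subunit included both UTP18, the highest of all 47 in ratio, and IMP3, listed at 0 in ribosome profiling, with a median of 0.0085 over the 14. UTP18, a component of the small-subunit processome that assembles on the precursor RNA, had 48.9 FPKM in ribosome profiling and 13.8 FPKM in RNA sequencing, 2.57-fold above the median gene. IMP4, a protein of the U3 snoRNP, had 26.5 FPKM in ribosome profiling and 8.51 FPKM in RNA sequencing, 2.21-fold above. LTV1, which leaves the 40S particle late in its maturation, had 24.1 FPKM in ribosome profiling and 9.29 FPKM in RNA sequencing, 1.87-fold above. IMP4 was no longer past 2-fold with a pseudocount of 5, at a ratio of 0.89. IMP4 and LTV1 passed the filter with RNA sequencing values under 10 FPKM. UTP18, IMP4 and LTV1 were all low in RNA, at about 8 to 14 FPKM. Before centring, each of these had over 2 times that FPKM in ribosome profiling. Their hg19 loci are chromosome 17, 49337897 to 49375292, for UTP18 and chromosome 2, 131100489 to 131104197, for IMP4. In the authors' deposited table IMP4 had a log2 ratio of 1.64 with a model standard error of 0.97 and q = 0.422, and LTV1 one of 1.38 with 0.87 and q = 0.453.

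IMP3, which acts with IMP4 in the U3 snoRNP, was listed at 0 in ribosome profiling and at 3.74 FPKM in RNA sequencing. Its row had the status NOTEST, and no fold is given for it. IMP4 was thus among the highest of the factors in ratio and IMP3 the only one with no reads listed, at an RNA level under 5 FPKM.

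The other small-subunit factors lay within 2-fold of the median gene. The helicase DDX47 had 22.4 FPKM in ribosome profiling and 14.4 FPKM in RNA sequencing. BYSL (bystin), needed for export of the 40S particle, had 15.0 FPKM in ribosome profiling and 8.06 FPKM in RNA sequencing, NOP14 had 13.7 FPKM in ribosome profiling and 9.39 FPKM in RNA sequencing, and WDR43 had 12.1 FPKM in ribosome profiling and 10.3 FPKM in RNA sequencing. TSR1, a GTPase-like 40S factor, had 10.4 FPKM in ribosome profiling and 8.33 FPKM in RNA sequencing, and NOB1, the nuclease that makes the 3-prime end of 18S ribosomal RNA, had 9.60 FPKM in ribosome profiling and 8.84 FPKM in RNA sequencing. BYSL was 1.35-fold above the median gene, and RRP9 and RRP12, the lowest in level apart from IMP3, were 1.59-fold and 1.43-fold below it. UTP3 had 7.86 FPKM in ribosome profiling and 6.22 FPKM in RNA sequencing, the helicase DDX10 had 6.37 FPKM in ribosome profiling and 2.97 FPKM in RNA sequencing, the U3 protein RRP9 had 3.13 FPKM in ribosome profiling and 4.02 FPKM in RNA sequencing, and the export factor RRP12 had 1.957 FPKM in ribosome profiling and 2.23 FPKM in RNA sequencing. DDX10 had the highest ratio of the factors under the filter, at 1.42-fold above the median gene.

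Factors of the large subunit included BOP1, the lowest of the tested factors. BOP1, PES1 and WDR12 form the PeBoW complex, which is needed to process the precursor into 28S and 5.8S ribosomal RNA. BOP1 had 13.5 FPKM in ribosome profiling and 22.2 FPKM in RNA sequencing, 2.09-fold below the median gene. It was no longer past 2-fold with a pseudocount of 5, at a ratio of -0.88, or on the centring of a 1 FPKM filter, at -0.52. PES1 had 17.4 FPKM in ribosome profiling and 8.28 FPKM in RNA sequencing, 1.51-fold above, and WDR12 had 9.56 FPKM in ribosome profiling and 7.20 FPKM in RNA sequencing, close to the median gene. By FPKM, BOP1 was the highest of the complex in RNA sequencing, and PES1 in ribosome profiling. That order makes no allowance for the coding share of the transcript, 15.7% in WDR12 and 76.9% in PES1. BOP1 lies on chromosome 8 (145486056 to 145515120, hg19), a locus it shares with the row of SCXA, which was listed at 0 in both libraries. Its deposited log2 ratio was -0.71 with a model standard error of 0.87 and q = 0.725 in the authors' deposited table.

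Nucleolar GTPases and their relatives differed in level. GNL3 (nucleostemin), a GTP-binding protein of stem and tumour cells, had 24.4 FPKM in ribosome profiling and 12.6 FPKM in RNA sequencing, 1.43-fold above the median gene. Its relative GNL3L had 3.001 FPKM in ribosome profiling and 4.77 FPKM in RNA sequencing, 1.89-fold below. In the authors' deposited table GNL3 exceeded GNL3L by 1.63 in log2 ratio, with a 95% interval from -0.69 to 3.94, so this difference was within the model error. GNL3 shares its locus with GLT8D1 and SPCS1, and reads of overlapping genes may have been divided between rows.

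The remaining 60S factors lay within 2-fold of the median gene. EBNA1BP2, a scaffold of early 60S particles, had 73.0 FPKM in ribosome profiling and 41.2 FPKM in RNA sequencing, and RRS1, which helps place the 5S particle, had 31.1 FPKM in ribosome profiling and 19.9 FPKM in RNA sequencing. NOP16 had 23.9 FPKM in ribosome profiling and 11.8 FPKM in RNA sequencing, and NOP2, a methyltransferase of 28S ribosomal RNA, had 14.3 FPKM in ribosome profiling and 12.9 FPKM in RNA sequencing. PPAN had 9.63 FPKM in ribosome profiling and 6.96 FPKM in RNA sequencing in a row that also holds the readthrough gene PPAN-P2RY11, and its locus overlaps EIF3G. The loci of NIP7 (with COG8 and PDF), TSR1 (with SRR), EBNA1BP2 (with WDR65) and NOP14 (with its antisense row NOP14-AS1) also overlap other rows, and whether reads were counted by strand is not given. These were at most 1.49-fold above the median gene, which NOP16 reached. The helicases DDX56 and DDX18 had 7.47 and 6.56 FPKM in ribosome profiling and 6.31 and 7.00 FPKM in RNA sequencing. NIP7 had 6.77 FPKM in ribosome profiling and 3.82 FPKM in RNA sequencing. MRTO4, a relative of the stalk protein P0 that holds its place during assembly, had 5.43 FPKM in ribosome profiling and 7.76 FPKM in RNA sequencing, 1.78-fold below.

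RNA polymerase I and its factors were low in level and, apart from DDX21, did not pass the filter. DDX21, a helicase that binds ribosomal DNA and precursor RNA, had 18.03 FPKM in ribosome profiling and 10.9 FPKM in RNA sequencing, 1.22-fold above the median gene. POLR1D and POLR1C, shared with RNA polymerase III, had 9.95 and 9.28 FPKM in ribosome profiling and 7.52 and 6.45 FPKM in RNA sequencing. The largest subunit POLR1A had 4.57 FPKM in ribosome profiling and 4.74 FPKM in RNA sequencing. The second-largest subunit POLR1B had 1.83 FPKM in ribosome profiling and 4.69 FPKM in RNA sequencing, 2.63-fold below. The large catalytic subunits were thus under 5 FPKM in each library. UBTF, which opens ribosomal DNA for transcription, had 6.75 FPKM in ribosome profiling and 6.31 FPKM in RNA sequencing. In the authors' deposited table POLR1B had the lowest finite log2 ratio of the factors, -1.36 with a model standard error of 0.98, and the status NOTEST.

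The same pathway was followed in genes outside the 47. Other 60S factors had a median of 0.14 over their 54 rows, all of mean FPKM at least 1, with 1 at least 2-fold higher and 5 lower. The 22 tested ones had a median of 0.45, with 1 higher and 0 lower. RPF2, which brings the 5S particle to the 60S, had 35.9 FPKM in ribosome profiling and 5.94 FPKM in RNA sequencing, 4.06-fold above the median gene. EIF6, which keeps the subunits apart, had 91.4 FPKM in ribosome profiling and 67.4 FPKM in RNA sequencing, and GLTSCR2, the lowest in ratio of those tested, had 12.4 FPKM in ribosome profiling and 13.9 FPKM in RNA sequencing. Other small-subunit factors had a median of 0.066 over 46 rows of mean FPKM at least 1, with 6 higher and 7 lower, and one of 0.33 over 8 tested rows, with 2 higher and 0 lower. Of these TSR2 had 20.8 FPKM in ribosome profiling and 5.92 FPKM in RNA sequencing, and the methyltransferase EMG1 had 26.9 FPKM in ribosome profiling and 24.2 FPKM in RNA sequencing. Over all genes the shares past 2-fold were 6.15% higher and 33.5% lower at a mean FPKM of at least 1, and 13.1% and 19.7% among tested genes. RPF2 and TSR2 passed the filter with RNA sequencing values under 10 FPKM.

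Exosome and nuclease genes, which trim the precursor, had a median of 0.00060 over 17 rows of mean FPKM at least 1, with 1 higher and 3 lower, and one of 0.37 over 6 tested rows. EXOSC1, the only one past 2-fold upward, was at 16.4 FPKM in ribosome profiling and 4.09 FPKM in RNA sequencing. It too passed the filter with an RNA sequencing value under 10 FPKM. EXOSC4 had 22.5 FPKM in ribosome profiling and 20.8 FPKM in RNA sequencing, and EXOSC7 had 18.7 FPKM in ribosome profiling and 18.3 FPKM in RNA sequencing. Other RNA polymerase I factors had a median of -0.26 over 15 rows of mean FPKM at least 1, with 1 higher and 2 lower, and one of -0.030 over 5 tested rows. Of the shared subunits, POLR2K was at 47.2 FPKM in ribosome profiling and 15.1 FPKM in RNA sequencing, 2.28-fold above, POLR2L at 57.7 FPKM in ribosome profiling and 34.5 FPKM in RNA sequencing and POLR2E at 16.8 FPKM in ribosome profiling and 15.9 FPKM in RNA sequencing. Genes of snoRNP assembly had a median of 0.13 over 9 rows of mean FPKM at least 1, with 2 higher and 2 lower. Their ATPases RUVBL2 and RUVBL1 had 64.6 and 44.2 FPKM in ribosome profiling and 41.0 and 30.4 FPKM in RNA sequencing. MYC had 27.6 FPKM in ribosome profiling and 17.2 FPKM in RNA sequencing, 1.2-fold above, and its partner MAX had 13.3 FPKM in ribosome profiling and 13.4 FPKM in RNA sequencing. None of the genes named in this and the preceding paragraph was called in the authors' deposited table.

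Ribosomal proteins, splicing proteins and RNA polymerase II served as groups for comparison. Tested large-subunit and small-subunit ribosomal proteins had medians of -0.020 over 46 and 0.11 over 32 genes, with 1 and 2 at least 2-fold higher and 7 and 2 at least 2-fold lower. Over rows of mean FPKM at least 1 the medians were -0.011 over 47 and 0.11 over 32, beside 0.017 for the 47 factors. RPL37A had 603 FPKM in ribosome profiling and 417 FPKM in RNA sequencing, and RPS10 had 574 FPKM in ribosome profiling and 288 FPKM in RNA sequencing. RPL24 and RPS13, the highest in ratio, were 2.45-fold and 2.72-fold above the median gene, with 283 and 279.96 FPKM in ribosome profiling and 87.7 and 77.9 FPKM in RNA sequencing. RPS12 had 83.2 FPKM in ribosome profiling and 342 FPKM in RNA sequencing, and RPL21 had 0.0066 FPKM in ribosome profiling and 85.1 FPKM in RNA sequencing. RPL21 has near-identical copies, so its value is uncertain. Copies of the ribosome biogenesis factors' own genes were not examined.

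Splicing proteins had a median of 0.30 over 35 tested genes, with 2 higher and 4 lower, and one of 0.28 over 37 rows of mean FPKM at least 1. SNRPD2 had 246 FPKM in ribosome profiling and 155 FPKM in RNA sequencing, HNRNPM had 82.3 FPKM in ribosome profiling and 25.5 FPKM in RNA sequencing, and HNRNPA1, which has many pseudogene copies, had 6.47 FPKM in ribosome profiling and 52.9 FPKM in RNA sequencing. RNA polymerase II core subunits, compared with those of RNA polymerase I, had a median of -0.25 over 5 tested genes, with 1 lower. Over 7 rows of mean FPKM at least 1 their median was -0.36. POLR2A had 28.1 FPKM in ribosome profiling and 20.8 FPKM in RNA sequencing, POLR2G had 16.3 FPKM in ribosome profiling and 9.60 FPKM in RNA sequencing, and POLR2J, which has close gene copies, had 4.47 FPKM in ribosome profiling and 22.2 FPKM in RNA sequencing. With 1 library per assay, no difference between these groups and the ribosome biogenesis factors was tested.

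The E-box CACGTG, the sequence that MYC and its partner MAX bind, was searched in the promoter entries, each of 250 bases before and 50 bases after the annotated start. It reads the same on both strands. A match was found in 16 of the 40 factors with an entry (40%), against 14.5% of 1893 tested protein-coding genes. Counted per promoter entry, it was in 17 of the factors' 50 entries (34%), against 7.26% of all 35116 promoters of that length. Other 60S factors held it in 17 of 49 (34.7%) and other small-subunit factors in 14 of 40 (35%). Large-subunit and small-subunit ribosomal proteins held it in 2 of 38 (5.26%) and 2 of 25 (8%), and splicing proteins in 6 of 34 (17.6%). It was found in 2 of 16 exosome genes (12.5%), 1 of 13 other RNA polymerase I factors (7.69%) and 0 of 7 snoRNP assembly genes, and the 5 other lists together held it in 34 of 125 (27.2%). A pyrimidine-tract start was present in 10 of those 125 (8%). FBL, DDX21 and EBNA1BP2 had both. In FBL the first base of the E-box is the last of the pyrimidine run, and in DDX21 they belong to separate annotated starts.

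Promoters are shown for UTP18, IMP4 and NOP10, the factors with matches at more than 1 position of a single entry, and for FBL, the most abundant factor with a match. Each runs from 100 bases before to 25 bases after the annotated start, 5-prime to 3-prime on the gene's strand, with the E-boxes in capitals. UTP18 is on the plus strand at chr17:51260446-51260570 and IMP4 on the plus strand at chr2:130342797-130342921. NOP10 is on the minus strand at chr15:34343112-34343236 and FBL on the minus strand at chr19:39846355-39846479.
UTP18: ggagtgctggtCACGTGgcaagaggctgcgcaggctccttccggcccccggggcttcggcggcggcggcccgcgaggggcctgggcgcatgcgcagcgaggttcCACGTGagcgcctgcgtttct
IMP4: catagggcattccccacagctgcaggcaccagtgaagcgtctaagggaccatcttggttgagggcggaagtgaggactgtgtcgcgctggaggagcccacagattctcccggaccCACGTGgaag
NOP10: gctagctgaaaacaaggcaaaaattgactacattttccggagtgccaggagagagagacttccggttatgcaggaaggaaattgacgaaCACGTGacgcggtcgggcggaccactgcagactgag
FBL: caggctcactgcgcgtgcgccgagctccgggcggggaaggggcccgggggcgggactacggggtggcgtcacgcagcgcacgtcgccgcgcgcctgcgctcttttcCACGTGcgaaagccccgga

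The further matches of IMP4 and NOP10 lie outside these windows, beginning at -203 and -170 from the start. Of the 20 matches in all entries of the factors, 16 began within 50 bases of a start. The 16 factors with an E-box had a median ratio of 0.40 and the 24 without one -0.081, while over protein-coding genes of mean FPKM at least 1 the medians were -0.48 for 1109 with a match and -0.52 for 7124 without one. Among tested factors the medians were 0.43 for 14 with an E-box and 0.11 for 8 without one. Of those with one, IMP4, LTV1, PES1, BYSL, GAR1 and NOP14 passed the filter with an RNA sequencing value under 10 FPKM. All of those without one had more than 10 FPKM in RNA sequencing, so the filter weighs on this split. Over all factors with an entry, those with an E-box had median levels of 17.7 FPKM in ribosome profiling and 9.83 FPKM in RNA sequencing. Those without had lower ones, 9.58 and 7.08 FPKM. Among tested factors this order was the other way, at 21.1 FPKM in ribosome profiling and 10.6 FPKM in RNA sequencing with an E-box. Without one these levels were 31.0 and 26.4 FPKM. Over tested protein-coding genes the median ratios were 0.13 for 275 with a match and 0.027 for 1618 without one. This split was made after the ratios were seen and was not tested.

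**Figure D4:**
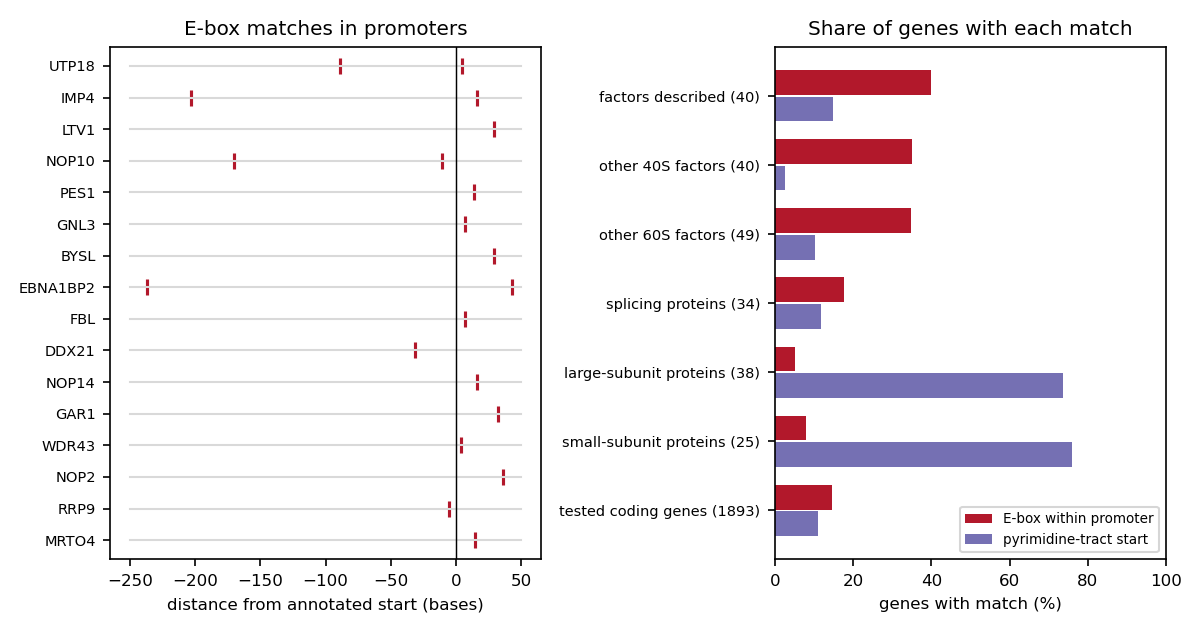
Left, first base of each E-box match relative to the annotated start in the 16 factors that hold one, ordered by ratio from UTP18 down; the matches of EBNA1BP2 belong to separate starts. Right, share of genes with an E-box (red) or a pyrimidine-tract start (violet), with the number of genes that have a promoter entry in brackets: 40% and 15% in the factors, 5.26% and 73.7% in large-subunit ribosomal proteins.

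Introns of several factors encode small nucleolar RNAs, which guide the modifications that the snoRNP proteins carry out. A total of 22 deposited snoRNA rows lay within the loci of 8 factors (NCL, NOP56, NOP58, DKC1, GNL3, WDR43, PPAN and TSR1). Of these, 7 were listed at 0 in both libraries, 5 were above 0 in both, 3 in ribosome profiling alone and 7 in RNA sequencing alone. The locus of NOP56 held 5 of them. SNORD57 had 3898 FPKM in ribosome profiling and 2523 FPKM in RNA sequencing, and SNORD110 had 2532 FPKM in ribosome profiling and 9288 FPKM in RNA sequencing, while SNORD56, SNORA51 and SNORD86 had 1989, 771 and 419.8 FPKM in RNA sequencing and were listed at 0 in ribosome profiling. SNORD57 was thus the only row of this host with the higher FPKM in ribosome profiling.

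In NCL, SNORD20 had 5387 FPKM in ribosome profiling and 8633 FPKM in RNA sequencing, SNORA75 had 2303 FPKM in ribosome profiling and 134 FPKM in RNA sequencing, and SNORD82 was listed at 0 in ribosome profiling and at 3246 FPKM in RNA sequencing. SNORD19B and SNORD69 in GNL3 had 3229 and 1555 FPKM in ribosome profiling and were listed at 0 in RNA sequencing, as was SNORA56 in DKC1, with 264 FPKM in ribosome profiling. Their hosts GNL3 and DKC1 lay on opposite sides of the median gene. SNORD53 in WDR43, SNORD91B in TSR1 and SNORD11B in NOP58 had 1549, 680.4 and 539 FPKM in RNA sequencing and were listed at 0 in ribosome profiling, and SNORD105B in PPAN had 829 FPKM in ribosome profiling and 1072 FPKM in RNA sequencing. FPKM of such short RNAs is large for few reads, so no ratio is given for them.

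**Figure D5:**
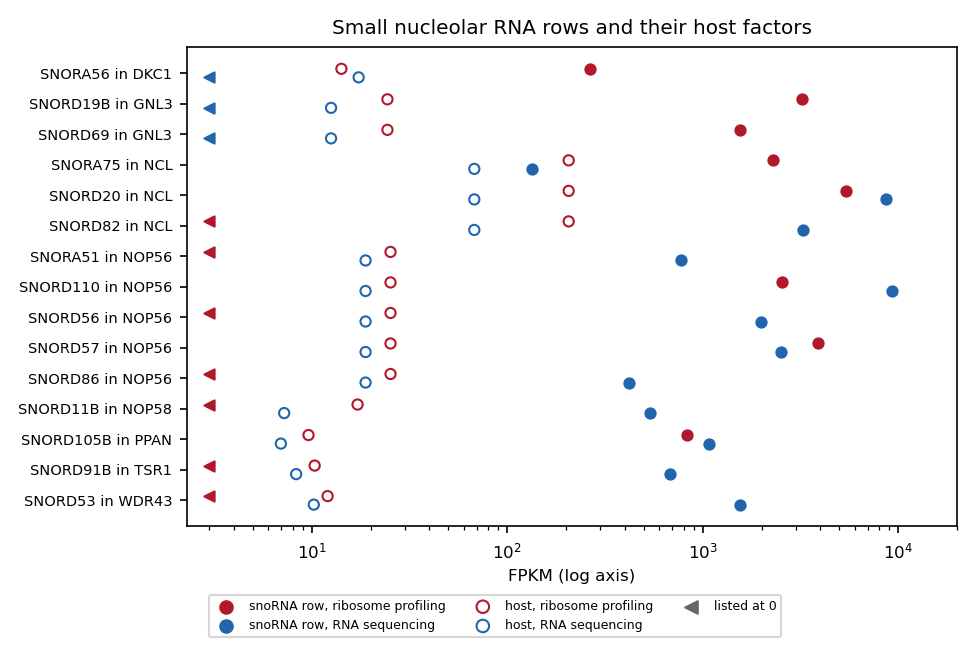
FPKM on a log axis of the 15 snoRNA rows above 0 in either library (filled) and of the factor whose locus holds them (open), in ribosome profiling (red) and RNA sequencing (blue), with triangles for rows listed at 0. The snoRNA rows above 0 run from 134 to 9288 FPKM, each above its host in the same library except where it is listed at 0.

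Coding length and ratio showed little rank relation among the factors. With the principal GENCODE 29 transcript of each gene, coding sequences of the 47 factors ran from 192 bases in NOP10 to 5160 bases in POLR1A, with a median of 1425 bases. Spearman's rho of the ratio with coding length was -0.11 over the 47 factors, and -0.020 with the coding share of the transcript, which had a median of 65.9%. The rho of the ratio with mean FPKM was 0.55 over the 47 factors and 0.18 over the 27 tested ones, against 0.32 and 0.22 over protein-coding genes with the same filters. Mean FPKM includes the ribosome profiling value, and the genes share both libraries, so these are descriptions without a p-value.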

How the data were processed

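The deposited table gives the authors' FPKM per gene row for 1 ribosome profiling and 1 RNA sequencing library, with their log2 ratio, statistic, p-value, q-value and status, per the file headers. SAMtools 0.1.18, bedtools 2.16.1, Bowtie2 2.0.0.6 and TopHat2 2.0.8b are listed without a role per the submitters' processing notes, as are builds mm10 and hg19. Which program wrote the table, and how it treated multi-mapped reads, is not given in the sources used here.

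Ratios used a pseudocount of 1 FPKM, which understates changes of low genes, and were centred on the median of tested genes (mean FPKM of at least 10, status other than FAIL or HIDATA). Folds of 2 or more were counted with no test. The deposited statistic has the opposite sign to the ratio, and its size matched the p-value in 100% of the 4542 rows compared, within 0.001. Centring and list medians were tested on simulated data. Coordinates are hg19 as deposited, with the first base written as 1. Promoters are RefSeq's and lengths GENCODE's, both matched by symbol. Python 3.11.15, numpy 2.4.6, pandas 2.3.3, scipy 1.17.1 and matplotlib 3.10.9 were used. The factors, gene lists and naming rule (every factor, MYC, and in each other list the tested genes with the top mean FPKM, the top ratio and the bottom ratio) were chosen with earlier results of these data known. The closing section gives 10 alternative settings and a looser q. One of the blood markers is not reported here.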

Additional observations from a re-analysis of the deposited data

How the results depend on the processing

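No paired analysis was possible because each assay has 1 library. Pseudocounts of 0.1 and 5, status OK rows alone and both other centrings left the factors' median ratio between 0.28 and 0.32. All 247 single ratios of tested factors under the 10 alternatives moved by less than their model standard error. Filters and centrings shift every ratio alike, by less than the smallest such error (0.78), so under these no ratio could move by more. Signs could still change, as for NAP1L1 (-0.52 to 0.15) and NOP2 (-0.25 to 0.42) with no filter. Factors under the filter were not in this check. With a pseudocount of 5 the 2-fold lower count was 0 of 27, against 16.5% of all genes, since BOP1 was its only member. It was also 0 of 8 with a filter of 30 FPKM, against 22.3%, and 0 of 27 without centring, against 14.2%. Among rows that overlap no other gene row it was 0 of 23, against 20.2%. The 2-fold higher count was 2 of 27 (7.41%) with a pseudocount of 5, where IMP4 had 0.89, against 10.7% of all genes. With a filter of 30 FPKM, which IMP4 did not pass, it was 2 of 8 (25%), against 15.6%. Among rows that overlap no other gene row, RNA polymerase II subunits had a median of 0.17 and splicing proteins one of 0.49, over fewer genes.

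Looser filters lowered the median gene and so raised every ratio. With a filter of 1 FPKM, 11 of 47 factors (23.4%) were 2-fold higher, against 15.5% of all genes on that centring, and the factors' median was 0.56. With no filter these were 14 (29.8%), against 16.1%, and 0.69. The 1 factor 2-fold lower (2.13%) was then IMP3, listed at 0, against 19.6% and 15.0% of all genes in turn. BOP1 had -0.52 and -0.39. For these 2 settings in turn, medians were 0.74 and 0.87 for box C/D proteins, 0.53 and 0.66 for box H/ACA proteins, 0.87 and 1.00 for chaperones, 0.69 and 0.82 for other 60S factors, 0.19 and 0.31 for RNA polymerase II subunits, 0.53 and 0.66 for large-subunit and 0.65 and 0.78 for small-subunit ribosomal proteins, and 0.82 and 0.95 for splicing proteins. With no filter, other RNA polymerase I factors had 0.41 and other small-subunit factors 0.81. With a filter of 30 FPKM the medians were 1.18 for small-subunit assembly (UTP18 alone), 0.59 for other RNA polymerase I factors, and -0.19 and -0.068 for large-subunit and small-subunit ribosomal proteins.

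Without centring, 6 of 27 factors (22.2%) were 2-fold higher, against 23.6% of all tested genes, and the factors' median was 0.72. The medians were then 0.81 for large-subunit and 0.82 for small-subunit assembly, 0.76 for exosome genes, 0.84 for other 60S and 0.72 for other small-subunit factors, 0.37 and 0.50 for large-subunit and small-subunit ribosomal proteins, and 0.69 for splicing proteins. A q threshold of 0.25 also called 0 factors. Depth is unknown and limits the factors under 10 FPKM most.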
